A study of Mus musculus with 2 samples.

Results

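The control culture was compared between culture days 4 and 5. Its members were the cells of the control library whose barcode carried a single hashtag named for one of these days, with at least 500 detected genes and under 15% mitochondrial unique molecular identifiers (UMIs, which count single RNA molecules). They numbered 4864 of the 25221 cells of the series that passed the same limits, 2263 of day 4 and 2601 of day 5. The limits removed 47 of the 2310 singlets of day 4 (27 with too few genes, 43 with too many mitochondrial UMIs, some with both) and 98 of the 2699 of day 5 (54 and 89). The study asked how heme changes the fate of myeloid progenitors in culture. Bone marrow of C57BL/6 mice aged 8 to 10 weeks was depleted of lineage-positive cells, and the remaining progenitors were grown with GM-CSF at 20 ng/ml. This age is from the paper's culture methods, whereas its animal methods give an older range for all experiments. On day 3 albumin was added to the control cultures as the vehicle, and heme-albumin at 300 µM to the other cultures. Each of these groups was sequenced as 1 droplet library that pooled 5 hashtagged cultures, of days 0, 3, 4, 5 and 7. The control culture of each day was therefore 1 culture in 1 library, and the number of mice behind it was not stated. No difference below has a replicate check, and no test between the days was possible.

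GM-CSF drives bone marrow progenitors towards granulocytes, macrophages and dendritic cells in the same dish. Developing neutrophils load their granules in an order, with elastase, myeloperoxidase and proteinase 3 made by the earliest precursors, lactoferrin and cathelicidin by later ones, and gelatinase near the end of maturation. Dendritic cells gain MHC class II, which shows peptides to CD4 T cells, and on maturation turn on the chemokine receptor Ccr7 and chemokines that attract T cells.

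The cells carried 31686612 UMIs on day 4 and 34608096 on day 5. The median per cell was 12016 UMIs and 2739 genes on day 4, and 9496 UMIs and 2363 genes on day 5. Mitochondrial transcripts took 3.98% of the UMIs on day 4 and 4.52% on day 5, and cytosolic ribosomal protein transcripts took 16.6% and 18.3%. Of the 4864 cells, 29 had a barcode that was also present in the heme library. Levels are given as CPM, the UMIs of a gene scaled to the same total (1000000 UMIs) on each day. Ratios are day 5 to day 4 with exact 95% intervals for a ratio of Poisson counts, and shares of cells have exact binomial intervals. Both cover counting error only. A gene was read as past the fold at a ratio of 1.5 or more (higher) or 0.667 or less (lower) with an interval that left out 1, among the 7305 genes at 10 CPM or more on the mean of both days.

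The level of 373 genes (5.11%) was higher on day 5 and that of 237 genes (3.24%) was lower, and the median log2 ratio over all 7305 genes was 0.04. Primary and secondary granule genes of neutrophils were mostly lower, whereas most tested genes of MHC class II, dendritic cell maturation, complement C1q and the interferon response were higher. Of the genes past the fold, 61.1% were higher on day 5. This share was 50.9% with TMM scaling and 50.2% with median-of-ratios scaling. In such sums, fewer cells of a type and less RNA per cell cannot be told apart, so levels among cells of 1 class are given further below. The mix of clusters within a class also differed between the days. Mix and level per cell therefore cannot be told apart within a class either.

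**Figure D1:**
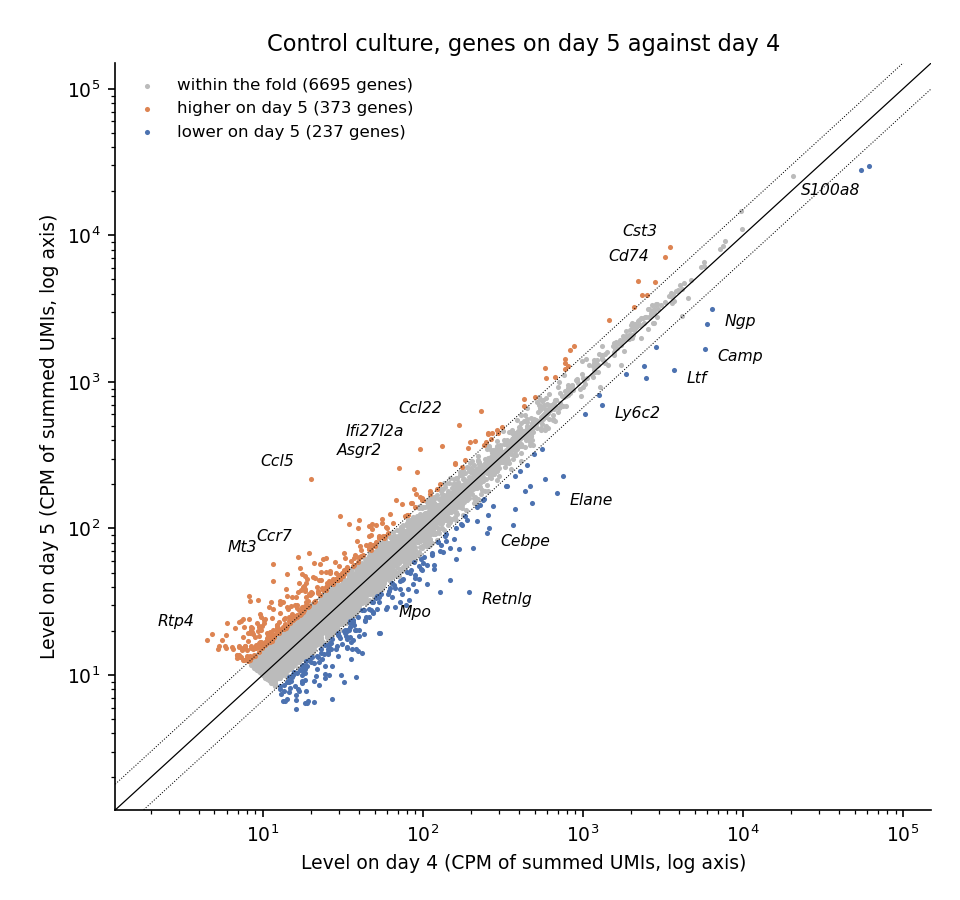
Level of each of the 7305 genes on day 4 (x axis) and day 5 (y axis), in CPM on log axes. The solid line marks equal levels and the dotted lines a ratio of 1.5 in either direction. The 373 genes higher on day 5 include Ccl5, Ccr7 and Cd74, and the 237 lower genes include Camp, Ltf, Elane and Retnlg.

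Primary granule genes, which mark the earliest neutrophil precursors, were lower as a group. All 8 members tested were past the fold downwards, with a median log2 ratio of -1.77. Elane, the gene of neutrophil elastase, fell from 694 to 175 CPM, a ratio of 0.252 (0.245 to 0.260). Prtn3, which encodes proteinase 3, went from 752 to 229 CPM, a ratio of 0.304. Mpo, the myeloperoxidase gene, went from 128 to 36.6 CPM, a ratio of 0.286. The day 4 levels of these genes were already below those of day 3, where Elane stood at 2465 CPM and Mpo at 382 CPM, and by day 7 they stood at 26.0 and 8.87 CPM. The smallest difference of the list was that of Cst7, the gene of a cystatin that inhibits cathepsins in granules, at 48.9 and 26.8 CPM. The progenitor marker list, which shares Elane, Mpo, Prtn3 and others with it, had 7 of 7 tested members lower. Serpinb1a, a member of the primary granule list whose product inhibits elastase-like proteases, stood at 482 and 149 CPM.

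Secondary granule genes, made by later precursors, were lower in 8 of the 10 cases tested, with a median log2 ratio of -1.15. Camp, which encodes the antimicrobial cathelicidin, stood at 4363 and 5814 CPM on days 3 and 4, and at 1686 and 81.3 CPM on days 5 and 7. Its ratio of day 5 to day 4 was 0.290 (0.287 to 0.293). Ltf, the lactoferrin gene, went from 3714 to 1197 CPM, a ratio of 0.322. Lcn2, whose product binds the iron carriers of bacteria, went from 5964 to 2485 CPM, and Ngp, a further granule protein gene, from 6455 to 3151 CPM. The exceptions were Chil3, a chitinase-like protein gene, at 4179 and 2825 CPM, and Ltb4r1, which encodes a leukotriene receptor, at 123 and 83.8 CPM. Their ratios of 0.676 and 0.684 did not reach the fold. Cebpe, the transcription factor required for secondary granules, was lower at 254 and 92.5 CPM, with a ratio of 0.365 (0.350 to 0.380).

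Genes of the last granules and of mature neutrophils split. Of 13 tested, 5 were lower and 1 was higher, and the median log2 ratio was -0.41. Retnlg, a resistin-like gene of mature neutrophils, had the lowest ratio of all genes the naming rule ranked, at 0.190 (0.179 to 0.202), from 194 to 36.9 CPM. With 42.5 CPM on day 3 and 6.04 CPM on day 7, it peaked on day 4 among these days. Ly6g, the neutrophil surface antigen, stood at 161 and 61.5 CPM. In contrast, the collagenase gene Mmp8 stood at 377 and 335 CPM, and Il1r2, a decoy receptor for interleukin 1, at 158 and 161 CPM. The lectin receptor gene Clec4d was the higher member, at 60.3 and 93.3 CPM with a ratio of 1.55. S100a8 and S100a9, the paired calcium-binding proteins that fill the neutrophil cytosol, were the most abundant of these transcripts. S100a8 went from 61522 to 29888 CPM and S100a9 from 54783 to 28091 CPM, ratios of 0.486 and 0.513.

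Mitosis genes had a median log2 ratio of -0.41 in the whole culture, and 1 of 20 was past the fold downwards, where 3.24% of all genes were. The 1 gene was Mki67, the proliferation marker, at 185 and 121 CPM. None of the 20 tested genes of DNA replication passed the fold, and their median was -0.19. Lists of basic cell functions moved little. No gene among 81 of cytosolic ribosomal proteins, 18 of the proteasome and 20 of nuclear oxidative phosphorylation passed the fold, with medians of 0.14, 0.02 and 0.05.

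**Figure D2:**
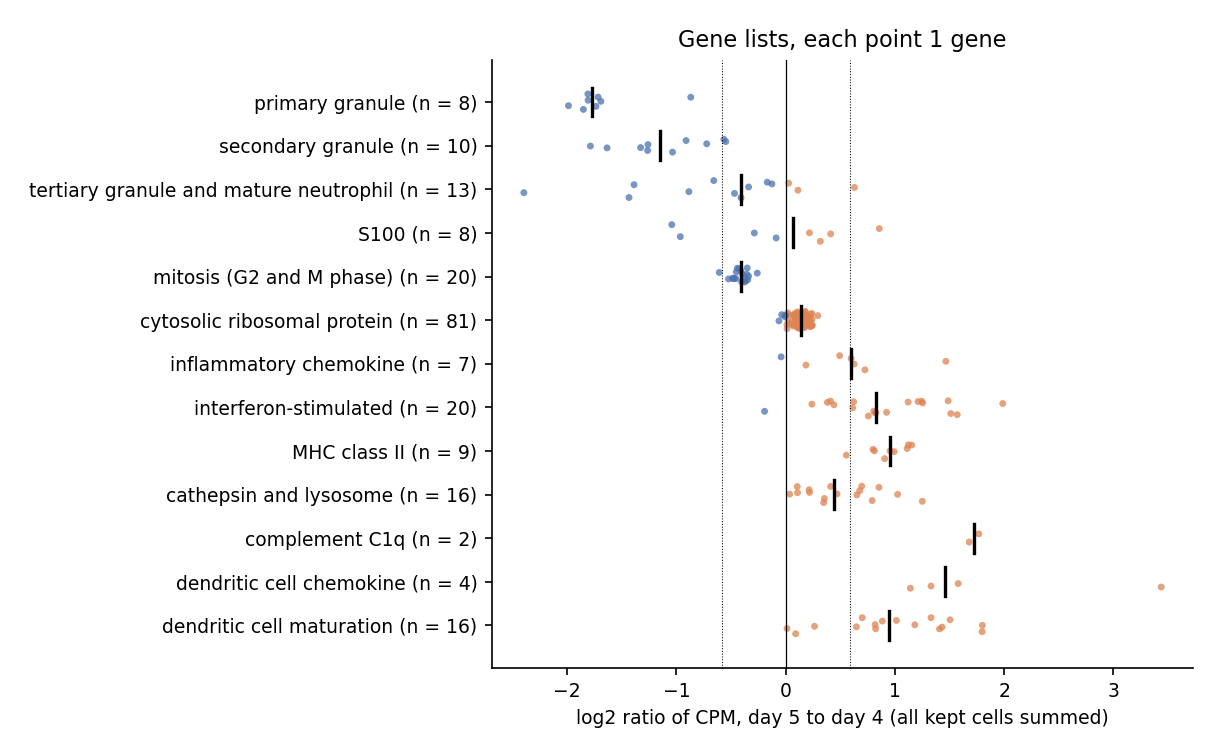
Log2 ratio of CPM, day 5 to day 4, for the tested members of 13 gene lists, all cells of a day summed. Each point is 1 gene, the black bar is the median of the list, the solid line marks 0 and the dotted lines the 1.5-fold limits. All primary granule genes lie left of the lower limit, and all C1q and dendritic cell chemokine genes lie right of the upper one.

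MHC class II genes were higher, with 8 of 9 past the fold and a median log2 ratio of 0.96. Cd74, the invariant chain that guides class II molecules through the cell, went from 3278 to 7139 CPM, a ratio of 2.18 (2.16 to 2.19). H2-Aa, a class II alpha chain, went from 833 to 1658 CPM, and H2-Eb1, a beta chain, from 578 to 1250 CPM. H2-DMb2, which helps load peptides, had the highest ratio of the list at 2.23, from 48.2 to 107 CPM. Ciita, the master activator of class II transcription, went from 32.6 to 63.3 CPM, a ratio of 1.94. The member short of the fold was H2-DMb1, at 129 and 190 CPM with a ratio of 1.47. Cd74 continued on the same course on the neighbouring days, with 1651 CPM on day 3 and 9837 CPM on day 7. Cst3, the cystatin C gene that is abundant in dendritic cells, went from 3518 to 8370 CPM, a ratio of 2.38.

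All 10 tested markers of mature dendritic cells were higher, with a median log2 ratio of 1.47. Ccr7, the receptor that guides dendritic cells to lymph nodes, stood at 4.10 and 19.4 CPM on days 3 and 4, and at 67.7 and 165 CPM on days 5 and 7. Its ratio between days 4 and 5 was 3.48 (3.19 to 3.81). Cd83, a surface protein of mature dendritic cells, went from 9.40 to 32.7 CPM. Fscn1, which encodes the actin-bundling protein fascin, went from 22.7 to 57.1 CPM. Aldh1a2, an enzyme that makes retinoic acid, went from 8.33 to 32.2 CPM, a ratio of 3.87. Of the 16 tested genes of the dendritic cell maturation list, which overlaps these markers, 13 were higher and none was lower.

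Chemokine genes of dendritic cells were higher in all 4 tested cases. Ccl5, which attracts T cells, had the highest ratio of the ranked genes, at 10.8 (9.99 to 11.8), from 20.1 to 218 CPM. It stood at 8.22 CPM on day 3 and 865 CPM on day 7. Ccl22, a ligand of the receptor Ccr4, went from 169 to 505 CPM, and Ccl17, a ligand of the same receptor, from 2219 to 4897 CPM. Inflammatory chemokine genes were past the fold in 4 of 7 cases. Ccl2, which attracts monocytes, went from 132 to 363 CPM, a ratio of 2.76, and Cxcl2, which attracts neutrophils, stood at 99 and 96.2 CPM.

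Macrophage genes were mixed. Both tested C1q genes, which encode chains of the first complement component, were higher, and 5 of 9 macrophage markers were. C1qb went from 14.3 to 48.6 CPM, a ratio of 3.41 (3.07 to 3.79), and reached 209 CPM on day 7. Mrc1, the mannose receptor gene, stood at 55 and 39.5 CPM, a ratio of 0.718 that was short of the fold. Of 16 tested cathepsin and lysosome genes, 7 were higher and none was lower. Ctss, a protease that trims the invariant chain, went from 255 to 442 CPM. Among 24 myeloid transcription factors, 5 were higher and 4 were lower. Irf8, needed for monocytes and dendritic cells, went from 41.4 to 70.9 CPM. Outside that list, Nr4a3, a nuclear receptor gene, went from 17 to 53.7 CPM.

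Other genes with the highest ratios had no list in common. Mt3, a metallothionein gene, went from 11.7 to 57.0 CPM, a ratio of 4.88. Ckb, the brain-type creatine kinase gene, went from 30.5 to 121 CPM. Pf4, a chemokine gene of platelets and macrophages, was at its lowest on day 4, with 69.9, 16.7, 64.0 and 253 CPM on days 3, 4, 5 and 7. Asgr2, a lectin receptor gene, went from 70.9 to 260 CPM. Markers of cells that the lineage depletion or the medium should leave few of stayed low. The summed level of 8 erythroid markers was 214 CPM on day 4 and 292 CPM on day 5, and that of 9 lymphoid markers was 6.38 and 1.97 CPM, with Ms4a1, Ncr1 and Gzma among those at 0 on both days.

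Interferon-stimulated genes, which interferons switch on to restrict viruses, were higher as a group. Of 36 listed, 20 were at 10 CPM or more, and 15 of these were higher, none was lower, and the median log2 ratio was 0.82. Rtp4, a member of the list, went from 4.80 to 19.0 CPM, a ratio of 3.96 (3.32 to 4.76), having stood at 0.309 CPM on day 3. Rsad2, which encodes the antiviral enzyme viperin, went from 5.27 to 15.0 CPM, a ratio of 2.85 (2.39 to 3.41), and stood at 8.17 CPM on day 7. Mx1, an antiviral GTPase gene, went from 8.17 to 24.3 CPM. Isg15, which encodes a ubiquitin-like protein, went from 19.0 to 45.3 CPM, a ratio of 2.38 (2.17 to 2.62). The members short of the fold included Irf1, an interferon regulatory factor gene, at 14.1 and 16.7 CPM. Cmpk2, a mitochondrial kinase gene, stood at 11.4 and 9.97 CPM. Outside the list, the interferon-inducible gene Ifi27l2a stood at 29.0, 96.7, 349 and 922 CPM on days 3, 4, 5 and 7, with a ratio of day 5 to day 4 of 3.61 (3.47 to 3.76). Slfn5, of the schlafen family of interferon-inducible genes, went from 8.21 to 34.6 CPM, a ratio of 4.22.

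Many promoters of interferon-stimulated genes hold the letters GAAANNGAAA, the core of the element that interferon regulatory factors recognise. The motif was searched on both strands from 250 bases before to 50 bases after each gene start in RefSeq (GRCm38.p6). It was present in 1131 of 32851 promoter records (3.44%). Among the list members with a record it was present in 18 of 28 (64.3%), and among the 10 that were higher on day 5 in 9. Among all 288 genes higher on day 5 with a record, 37 held it (12.8%), against 236 of 5875 tested genes (4.02%). The 37 include the 9 list members, and the difference between these shares was not tested. The 150 bases before the gene start are printed for 4 of the higher list members to show where the motif lies. They run 5′ to 3′ on the strand of the gene, with matches in capitals. All 4 hold a match in this stretch, which some of the other higher members do not. Rsad2 lies on the minus strand with the printed bases at chr12:26456453-26456602, and Gbp2, a guanylate-binding protein gene, on the plus strand at chr3:142620513-142620662. Isg15 lies on the minus strand at chr4:156200819-156200968, and Oas1a, which encodes an oligoadenylate synthetase, on the minus strand at chr5:120907526-120907675. Gbp2, Isg15 and Oas1a were chosen after their values were seen.
Rsad2: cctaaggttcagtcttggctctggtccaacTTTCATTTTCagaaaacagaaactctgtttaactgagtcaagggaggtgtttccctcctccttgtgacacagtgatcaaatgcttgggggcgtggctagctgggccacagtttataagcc
Gbp2: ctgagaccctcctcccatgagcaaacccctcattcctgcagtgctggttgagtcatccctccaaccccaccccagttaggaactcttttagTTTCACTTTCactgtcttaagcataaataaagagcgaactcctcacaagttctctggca
Isg15: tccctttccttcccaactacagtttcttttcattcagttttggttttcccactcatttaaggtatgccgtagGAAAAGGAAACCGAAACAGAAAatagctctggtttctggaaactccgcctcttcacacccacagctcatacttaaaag
Oas1a: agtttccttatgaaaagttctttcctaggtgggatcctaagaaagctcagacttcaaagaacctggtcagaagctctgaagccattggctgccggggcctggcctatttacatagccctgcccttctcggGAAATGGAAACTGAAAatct

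In Rsad2 and Gbp2 the match lay on the opposite strand and began 120 and 59 bases before the gene start. Isg15 held 3 overlapping matches that began 78, 72 and 66 bases before its start, and Oas1a held 2 overlapping matches that began 20 and 14 bases before its start. The levels of Gbp2 were 20.9 and 58.6 CPM, a ratio of 2.80, and those of Oas1a 8.74 and 19.0 CPM, a ratio of 2.17. A match describes these letters and was not tested as a binding site.

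The cells of both days were clustered together and named from their markers. Neutrophil-like cells were the largest class, at 57.1% of the cells of day 4 (1293 cells) and 53.1% of day 5 (1382 cells), a difference of -4.0 percentage points (-6.83 to -1.17). This difference depended on the clustering and on which clusters took a name. It was -1.95 points (-4.79 to 0.89) with 30 principal components and -19.8 points (-22.7 to -16.9) under the study's stricter cell limits. Under those limits unnamed clusters held 14.2% of the cells of day 4 and 29.1% of day 5. Among them was 1 of 404 cells with 9 raised neutrophil markers, which is not in the neutrophil-like share. Neutrophil progenitor-like cells, led by Elane, Mpo and Prtn3, made up 5.39% on day 4 (122 cells) and 1.65% on day 5 (43 cells). Antigen-presenting cell-like cells, raised for genes of the MHC class II marker list, went from 12.1% (273 cells) to 19.3% (501 cells), a difference of 7.2 points (5.14 to 9.24). In this class, cluster 12 (94 and 242 cells) had 9 raised markers of the list. Cluster 1 (179 and 259 cells) had 4, with Cd74 but without H2-Aa, H2-Ab1 or H2-Eb1. Mature dendritic cell-like cells, led by Ccl5, Fscn1 and Ccr7, went from 1.9% (43 cells) to 6.54% (170 cells). Macrophage-like cells, led by Cxcl3, Fabp4 and Pf4, stood at 7.25% and 6.38%, a difference of -0.86 points (-2.33 to 0.58) whose sign turned at Leiden resolution 2 and with 30 components. Basophil or mast cell-like cells numbered 18 on each day, and erythroid-like cells 9 and 18. The erythroid-like cells also carried the neutrophil transcript S100a8 at 53265 and 34006 CPM, above the globin gene Hbb-bs at 11811 and 17356 CPM. The source of these S100a8 UMIs was not tested. A pair of unnamed clusters, 1 led by Prg2, Thy1 and Saa3 and 1 led by Ccl4, Cd36 and Ccl2, made up 15.1% and 11.6%.

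Because genes that differed between the days helped to define these clusters, the shares were also taken from clusters made without the genes past the fold. Neutrophil-like cells then made up 45.7% and 39.6%, and neutrophil progenitor-like cells 16.1% and 6.61%. The progenitor-like class of this version was wider (364 and 172 cells) and took in a cluster of 148 cells led by Thy1, Saa3 and Igfbp4. That cluster had 3 raised progenitor markers and none of them among its 10 leading genes. Antigen-presenting cell-like cells made up 16.8% and 25.1%, and mature dendritic cell-like cells 1.9% and 6.69%. The directions of the 4 classes, as named, were the same in both versions. In the second, a cluster of 402 cells with 12 raised neutrophil markers took no name and is not in the neutrophil-like share. The neutrophil-like direction of that version therefore covers the named clusters only. The cultures had been pooled at equal cell numbers, so that all of these values are shares and not numbers of cells in the dish.

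**Figure D3:**
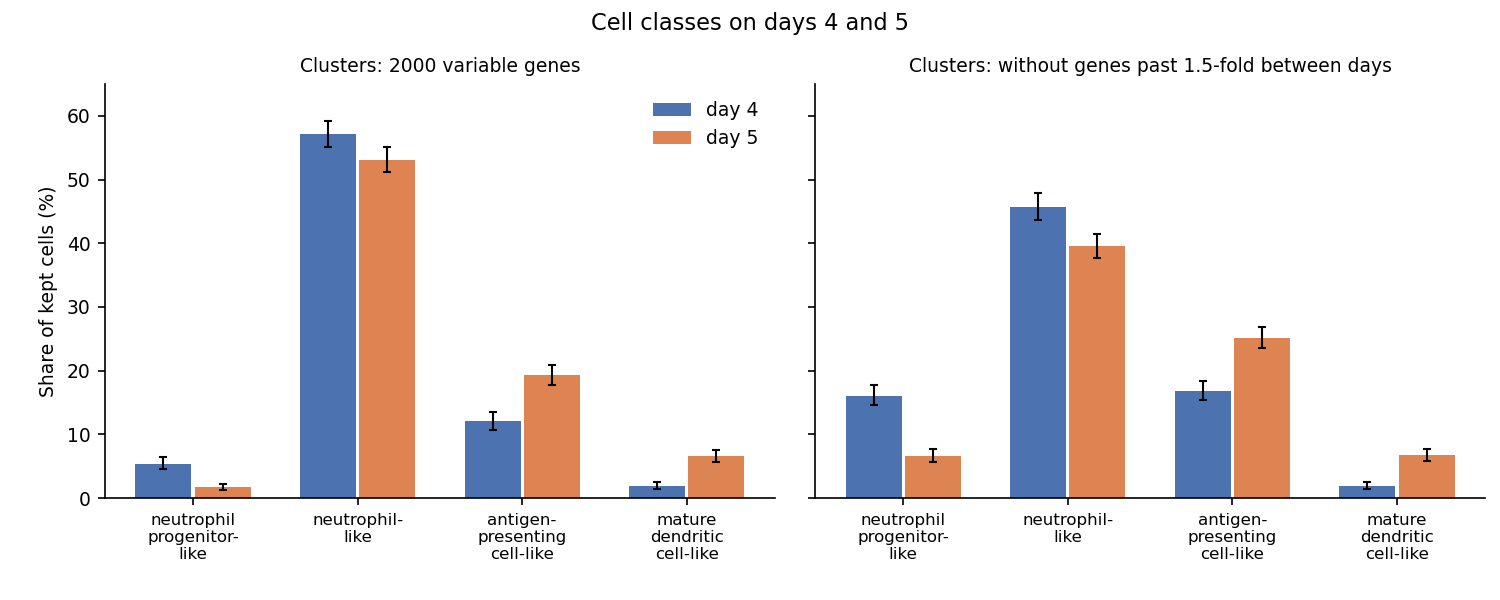
Share of the kept cells in 4 classes on day 4 (blue) and day 5 (orange), with exact 95% binomial intervals as error bars, from clusters of 2000 variable genes (left) and from clusters made without the genes past 1.5-fold (right). The progenitor-like and neutrophil-like bars are lower on day 5 and the antigen-presenting and mature dendritic cell-like bars are higher in both panels. Cells of unnamed clusters are not drawn.

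Different clusters held the neutrophil-like cells of each day. Clusters 2, 3 and 9, led by Retnlg, Ltf and Camp, held 881 of the cells of day 4 and 297 of day 5. Clusters 10, 11 and 14, led by Gstm1, Ear6 and Mmp9, held 175 and 844. Cluster 10 (40 and 264 cells) carried macrophage genes such as Gpnmb and Maf among its leading genes, and without it the neutrophil-like share was 55.4% and 43.0%. The median depth of the neutrophil-like cells was 7742 UMIs on day 4 and 5184 on day 5. That of the antigen-presenting cell-like cells was 20287 and 21607 UMIs. The neutrophil-like cells thus gave 38% of all UMIs on day 4 and 24.2% on day 5, and the antigen-presenting cell-like cells 19.9% and 34.7%.

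Shares of cells with a UMI were taken after each cell was thinned to 3000 UMIs, which left out 102 cells of day 4 and 291 of day 5 as too shallow. Camp was found in 59.0% of the thinned cells of day 4 and 37.7% of day 5 (77.4% and 61.8% unthinned). In antigen-presenting cell-like cells, which should lack Camp, the thinned shares were 8.79% and 11.8%. Cd74 was found in 46.8% and 66.3% (71.4% and 75.5% unthinned), and in 27.1% and 39.5% of the neutrophil-like cells. Ccr7 was found in 2.31% and 6.45% (3.31% and 8.46% unthinned) and in 0.663% and 0.722% of the neutrophil-like cells. Thinned macrophage-like cells held it in 0 of 163 and 0 of 164 cases, which allows shares with a UMI of up to 1.84% and 1.83% at this depth, and unthinned they held 1 and 4 UMIs of it. Ifi27l2a was found in 18.2% and 41.5% (36% and 58.1% unthinned).

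Among neutrophil-like cells alone, 1030 of 6355 genes (16.2%) were higher on day 5 and 325 (5.11%) were lower, with a median log2 ratio of 0.19 over all genes. These sums also hold the different mix of clusters on each day, which was not separated from level. Without cluster 10, 682 of 6260 (10.9%) were higher and 232 (3.71%) were lower, with a median of 0.13. The secondary granule genes were lower within this class too, 7 of 11, but only 3 were past the fold without cluster 10. Camp stood at 14714 and 6602 CPM within the class, a ratio of 0.449 (0.522 without cluster 10). Ltf stood at 9564 and 4669 CPM, and Cebpe at 540 and 271 CPM. Camp and Ltf are markers of the class, so that their levels in it are a description. S100a8 differed less, at 146573 and 111648 CPM, a ratio of 0.762. Mitosis genes were lower in all 20 of 20 cases within the class, with a median log2 ratio of -1.04, and in 19 of 20 without cluster 10. Mki67 stood at 205 and 117 CPM there. Mitosis genes passed the fold in neither direction among antigen-presenting cell-like or macrophage-like cells, with 20 tested in each and medians of -0.05 and 0.17. Of all genes, 1.26% were higher on day 5 in antigen-presenting cell-like cells and 2.81% in macrophage-like cells. The share of all genes that were lower is not given for either class. Without it, the absence of calls there cannot be set against the lower calls in neutrophil-like cells.

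Interferon-stimulated genes were higher within the neutrophil-like class in 18 of 21 cases, with a median log2 ratio of 1.06, and in 17 of 20 without cluster 10. Classes clustered without the genes past the fold gave 19 of 21. Rtp4 stood at 5.57 and 42.7 CPM in these cells, a ratio of 7.68 (5.90 to 10.1), although Rtp4 was among the leading genes of cluster 14. With clusters made without it the levels were 6.21 and 46.9 CPM. Slfn5 stood at 3.91 and 35.1 CPM, and Rsad2 at 6.56 and 34.7 CPM, a ratio of 5.29 (4.11 to 6.88). Isg15 stood at 14.2 and 58.3 CPM. Ifi27l2a was higher in every large class, from 131 to 505 CPM in neutrophil-like cells, from 109 to 309 CPM in antigen-presenting cell-like cells and from 101 to 360 CPM in macrophage-like cells. Macrophage-like cells had 15 of 24 tested members of the list higher, where 209 of all 7448 genes (2.81%) were. Antigen-presenting cell-like cells had 3 of 17, where 91 of 7244 (1.26%) were. Mx1 did not follow the others in neutrophil-like cells, at 1.5 and 2.27 CPM, and was highest in mature dendritic cell-like cells, at 34.7 and 93.6 CPM. Whether the class differences exceed the spread between cultures was not tested.

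**Figure D4:**
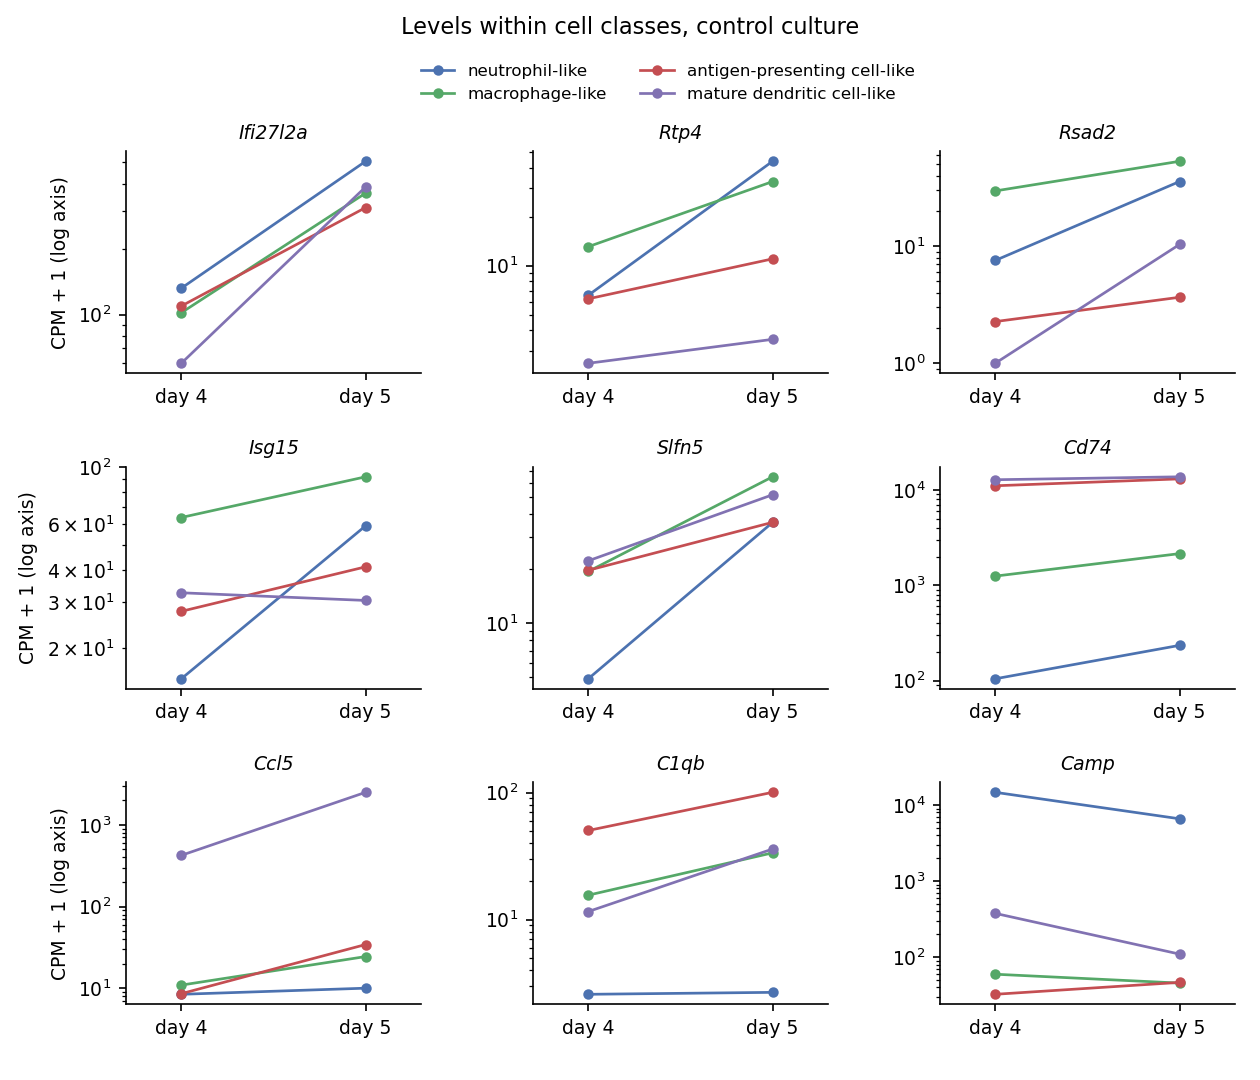
Level of 9 genes within 4 classes on day 4 and day 5, as CPM + 1 on log axes whose range differs between panels. Ifi27l2a was higher on day 5 in all 4 classes, Cd74 differed little within the antigen-presenting and mature dendritic cell-like classes, and Ccl5 lay highest in the mature dendritic cell-like class.

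MHC class II differed less within its class than in the whole culture. Among antigen-presenting cell-like cells 1 of 10 tested members was past the fold, and the median log2 ratio was 0.14. Cd74 stood at 11079 and 13084 CPM there, a ratio of 1.18 (1.17 to 1.19), and H2-Aa at 2825 and 3023 CPM. These genes define the class, so that their levels in it are a description. The C1q genes were higher in the class in 3 of 3 cases, with C1qb at 49.3 and 99.5 CPM, a ratio of 2.02 (1.78 to 2.29). Mt3 stood at 24.8 and 76.6 CPM and Ckb at 111 and 226 CPM in these cells, and both were at or under 17.6 CPM in the neutrophil-like, macrophage-like and mature dendritic cell-like classes. Mt3 was also among the leading genes of the unnamed cluster led by Ccl4. Neutrophil transcripts were also counted in these cells, with Camp at 31.5 and 45.6 CPM and S100a8 at 589 and 1019 CPM. S100a8 stood at 3816 and 1876 CPM in macrophage-like cells and at 3691 and 1619 CPM in mature dendritic cell-like cells. These levels thus differed between the days, and the part of such transcripts in the low levels of other genes was not tested.

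The mature dendritic cell-like class held 43 cells on day 4, too few for a ratio, so its levels are given as they stand. Ccr7 stood at 866 and 807 CPM and Ccl22 at 3952 and 4181 CPM, levels close to each other between the days. Ccl5 stood at 422 and 2496 CPM, from 280 and 6932 UMIs, and at 422 and 2433 CPM where clusters were made without it. Outside this class Ccl5 stood at 7.63 and 33.4 CPM in antigen-presenting cell-like cells at 9.98 and 23.5 CPM in macrophage-like cells, and at 7.48 and 9.07 CPM in neutrophil-like cells. In the 18 basophil or mast cell-like cells of each day, Ccl5 stood at 762 CPM on day 4, from 108 UMIs, and at 12.4 CPM on day 5, from 1 UMI. Ccl17 was spread more widely, at 7197 and 8774 CPM in antigen-presenting cell-like cells and 3377 and 4779 CPM in mature dendritic cell-like cells. The progenitor-like class held 43 cells on day 5.

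Inflammatory chemokine genes were higher within the neutrophil-like class in 6 of 7 cases, also without cluster 10, and within the antigen-presenting cell-like class in 1 of 6. Heme and iron genes were higher in 6 of 10 cases in neutrophil-like cells, in 4 of 10 without cluster 10, and in 0 of 9 in antigen-presenting cell-like cells. Ccl6, a chemokine gene of myeloid cells, stood at 2215 and 7152 CPM in neutrophil-like cells, a ratio of 3.23 (2.66 without cluster 10), and at 1763 and 1742 CPM in antigen-presenting cell-like cells. Fth1, the ferritin heavy chain that stores iron, stood at 4706 and 14412 CPM in neutrophil-like cells, a ratio of 3.06 (2.14 without cluster 10), and at 11973 and 11759 CPM in antigen-presenting cell-like cells. Cathepsin and lysosome genes were higher in 12 of 16 cases in neutrophil-like cells, in 10 of 15 without cluster 10, and in 0 of 16 in antigen-presenting cell-like cells. Over all genes, 16.2% were higher in neutrophil-like cells (10.9% without cluster 10) and 1.26% in antigen-presenting cell-like cells. The difference between the classes was not tested.

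The heme library offered the only other pair of cultures of these days, given heme-albumin in place of albumin. There, 347 of 7837 genes (4.43%) were higher on day 5 and 485 (6.19%) were lower. Of the genes lower in the control culture, 189 were lower in both libraries, which is 79.7% of the control and 39.0% of the heme calls. Of the higher ones, 142 were higher in both, which is 38.1% of the control and 40.9% of the heme calls. The shares of control calls count the genes not tested in the heme library as not shared, since 323 of the 373 higher and 227 of the 237 lower genes were tested there. Camp went from 4618 to 421 CPM and Elane from 146 to 68.6 CPM in the heme library. Cd74 went from 2370 to 5045 CPM there, a ratio of 2.13. Over the 20 interferon-stimulated genes at 10 CPM or more in the control culture, the median log2 ratio was -0.14 in the heme library and 0.82 in the control culture. That limit was set by the control levels alone, so the 2 medians are not on an equal footing. The summed level of all 36 members was 394 and 732 CPM in the control culture and 434 and 390 CPM in the heme library. Ifi27l2a stood at 108 and 102 CPM with heme, and Rtp4 at 4.44 and 4.94 CPM. Isg15 went from 15.1 to 7.2 CPM and Rsad2 from 18.5 to 3.12 CPM. The difference between the libraries was not tested, since each holds 1 culture per day.

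**Figure D5:**
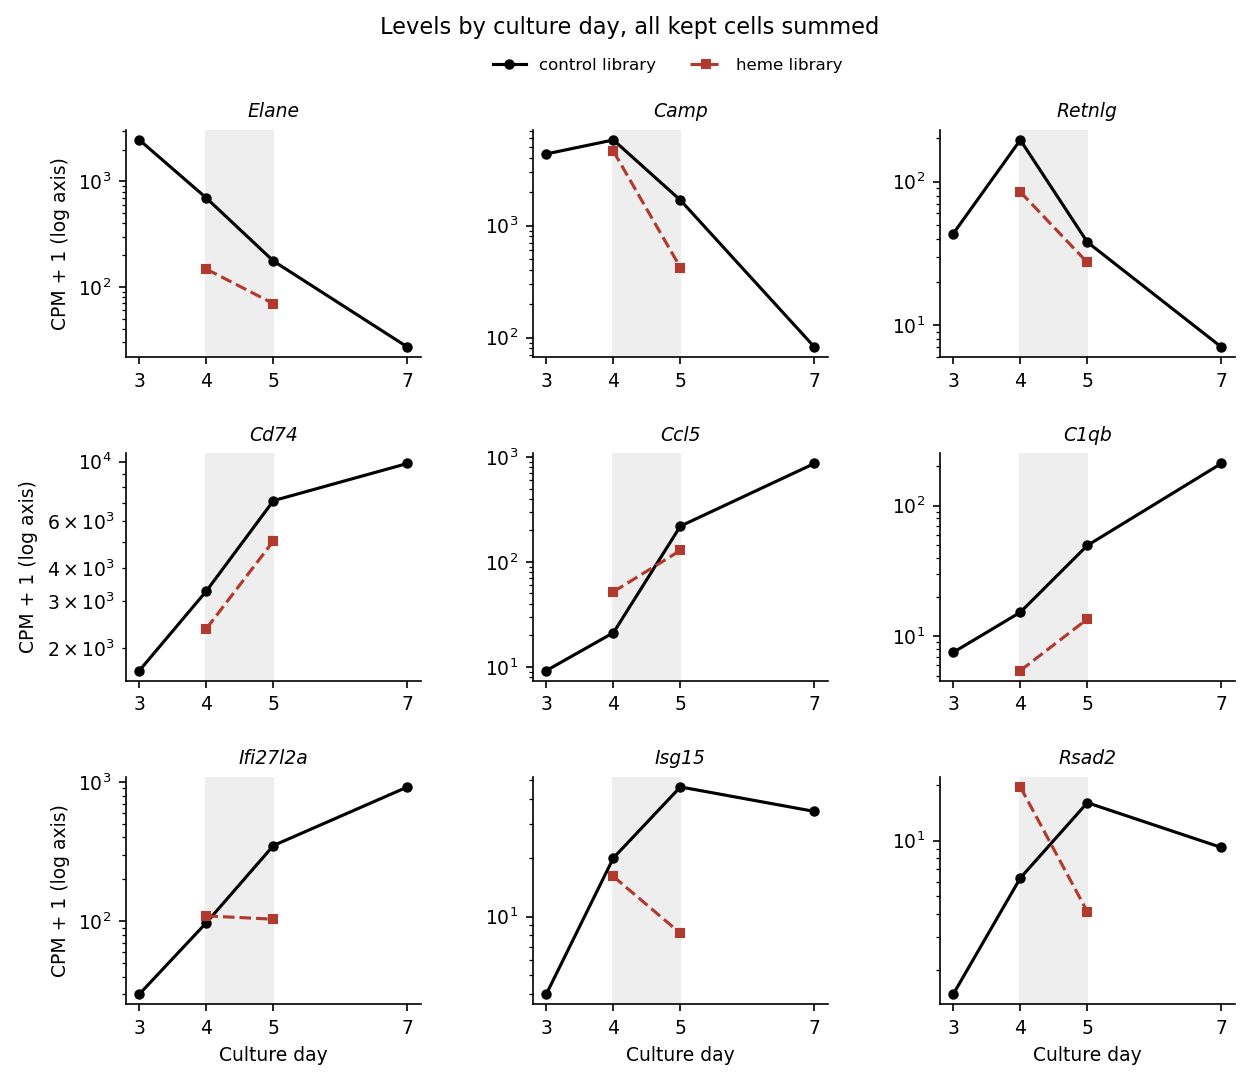
Level of 9 genes in the control library on culture days 3, 4, 5 and 7 (black) and in the heme library on days 4 and 5 (red, dashed), as CPM + 1 on log axes whose range differs between panels. The grey band marks days 4 to 5. Elane, Camp and Retnlg were lower on day 5 in both libraries, whereas Isg15 and Rsad2 were higher on day 5 in the control library and lower in the heme library.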

How the data were processed

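Both deposited matrices hold raw UMI counts per gene and cell barcode, which the authors obtained with Cell Ranger from a 3′ droplet library. The submitters' processing notes name Cell Ranger 4.0.0 and build GRCm38.p6, whereas the matrix headers name version 5.0.0. Hashtag calls were deposited by the authors as text and used as they stand. Barcodes with several hashtags (1259 in the control library, 129 of them with those of days 4 and 5) or none (652) were left out. That is how doublets were treated, and doublets within 1 culture remain. Exposure times in the design text (0, 24, 72 and 96 h) do not match harvests on days 4, 5 and 7 in the labels, and the study's outline gives staggered starts with a common harvest on day 7. Days are therefore the hashtag names, and whether they mean culture age or harvest day is not settled.

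UMIs were summed over the cells of each day. With 1 culture per day, no count model was fitted. Cells were clustered after the study's methods with scran 1.30.0 and scanpy 1.11.5 (2000 variable genes, 15 components, 15 neighbours, Leiden at resolution 1, igraph 0.11.9). A cluster took the name of a list with 3 or more raised markers (log2 ratio of 1, in 10% of its cells). It also had to have more raised markers of that list than of any other. No other list could hold more of its 10 leading genes. A cluster that failed a condition stayed unnamed, also with many raised markers, and is in no named class. These naming limits were set with clusters of these data known. Levels within a class are given as ratios where each day had 50 cells or more. The difference between shares has an interval that adds both in quadrature. A count of 0 was read as allowing up to 3 counts. Scalings with edgeR 4.0.16 and DESeq2 1.42.0 factors, other filters, folds and clusters were tried. The ratio and interval code was tested on simulated counts.

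Named genes were the 15 with the highest and the 15 with the lowest ratio at 20 CPM or more, up to 3 members at each end of every list, and the cell type markers. Genes named beyond that rule (Isg15, Gbp2, Oas1a, Oas3, Apol7c, Ctss and some leading genes of clusters) were chosen after their values were seen. There were 13 marker lists, 41 pathway lists, and the cytosolic ribosomal protein and mitochondrially encoded genes as sets of their own. The lymphoid list had no tested member and so no median. The members and the lists were chosen with earlier results of these data known. Some results are not reported here.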

Additional observations from a re-analysis of the deposited data

Results flagged for a closer look

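Of the 373 genes higher with albumin, 323 were tested with heme, and 4 (1.07% of the 373) were lower there. Over all genes tested with heme, 6.19% were lower, so such opposite calls were not frequent. Of the 237 genes lower with albumin, 227 were tested with heme and 0 were higher, where 4.43% of all genes were. The difference between the libraries was not tested, since each library held 1 culture per day. Isg15 had a ratio of day 5 to day 4 of 2.38 with albumin and 0.478 with heme. Rsad2 had ratios of 2.85 and 0.169. Oas3, an oligoadenylate synthetase gene, had ratios of 1.76 (11.6 to 20.4 CPM) and 0.498 (16.9 to 8.42 CPM). Apol7c, an apolipoprotein L gene of dendritic cells, had ratios of 1.98 (6.88 to 13.6 CPM) and 0.596 (19.3 to 11.5 CPM). Oas3 and Apol7c were named after their values were seen.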

How the results depend on the processing

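No paired analysis was possible because each day was 1 culture in 1 library with no replicate numbers. The genes higher on day 5 numbered 995 at a minimum of 1 CPM, 107 at 50 CPM and 113 at a fold of 2, and the lower ones 462, 92 and 76. The 3 other scalings, 2 cell filters and equal weighting of cells kept both counts within 1.5 times of 373 and 237, but with cells weighted equally 237 of the higher and 137 of the lower genes were shared with the reported ones. The neutrophil-like difference in share was -12.4 points at Leiden resolution 0.5 and also without cluster 10, -8.72 with cells scaled by total UMIs and -19.8 under the study's stricter cell limits, but -1.95 with 30 components, where its interval held 0. At resolution 0.5 unnamed clusters held 5.30% and 14.1% of the cells, among them 1 of 488 cells with 10 raised neutrophil markers. With total UMIs a cluster of 358 cells with 10 such markers was also unnamed. For progenitor-like cells the difference in share was -5.96 with 30 components, -9.47 in clusters without the genes past the fold and -7.50 with total UMIs. The class held more cells of both days in each of these. For antigen-presenting cell-like cells the difference was 9.35 at resolution 0.5. For macrophage-like cells the difference was 1.48 with 30 components, and 0.26 at resolution 2, so that its sign turned, and -2.66 under the stricter limits. No cluster took that name at resolution 0.5, without the genes past the fold or with total UMIs. Without cluster 10, chosen after the data were seen, 682 genes were higher in neutrophil-like cells and 3 secondary granule genes were lower. The difference in cells with a UMI was -24.2 points for Camp, 17 for Ifi27l2a and 2.57 for Ccr7 when thinned to 1000 UMIs, and -15.6 for Camp and 4.06 for Cd74 unthinned. All 330 alternative list medians over 55 lists stayed within 1.5-fold of the reported ones. Of the alternative values of 288 named genes, 742 lay outside the counting interval. Direction was checked only for genes past the fold, where the 1 value that reversed was that of Nr4a1. Its log2 ratio was -0.66 over summed UMIs and 0.062 with cells weighted equally. Sign changes of genes short of the fold were not counted apart. The cause of these changes was not tested. Depth per cell differed between the days, and intervals cover counting error only.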

Other observations

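The stefin genes, which encode inhibitors of cysteine proteases in a gene cluster of near-identical copies, split between the days. Of 6 tested, 2 were higher and 1 was lower, and reads of such copies may be shared between them. Stfa3 stood at 39.7 CPM on day 4 and 100 CPM on day 5, and Stfa2 at 95.5 and 164 CPM. Stfa1 stood at 131 and 76.6 CPM. Within neutrophil-like cells 5 of 6 were higher, where 16.2% of all genes were (10.9% without cluster 10). Stefin genes led cluster 8, a neutrophil-like cluster of 66 and 111 cells on days 4 and 5, and its part in this count was not separated. Over the whole class, Stfa3 stood at 102 and 401 CPM and Stfa2 at 248 and 664 CPM. All 3 were low on the neighbouring days, with Stfa3 at 1.35 CPM on day 3 and 14.7 CPM on day 7.

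Basophil and mast cell markers were lower in 4 of 6 tested cases and higher in 1. Prss34, a basophil protease gene, went from 54.4 to 19.4 CPM, and Mcpt8, another, from 53.4 to 19.4 CPM, although 18 basophil or mast cell-like cells were counted on each day. The median depth of these cells was 6359.5 UMIs on day 4 and 4032 on day 5. Arg1 and Fn1, macrophage genes that reached 256 and 501 CPM on day 7, stood at 1.39 and 1.70 CPM (Arg1) and at 43.6 and 53.1 CPM (Fn1) on days 4 and 5.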
